A study of Rattus norvegicus with 6 samples.

Results

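The insulin-like growth factor (IGF) binding proteins are secreted proteins that bind the ligands Igf1 and Igf2 outside the cell and set how much of them reaches the IGF receptor. The members of this family examined here were chosen by identifier, namely Igfbp2 (ENSRNOG00000016957), Igfbp3 (ENSRNOG00000008645), Igfbp4 (ENSRNOG00000010635) and Igfbp5 (ENSRNOG00000017206). Of these 4 genes, 3 were among the 32883 gene identifiers of the count files and are described here. The identifier given for Igfbp3 matched none of them, and Igfbp3 was not analysed here. The choice used no measured value, but it was made with earlier results of these data known.

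The cells were rBMSCs, primary mesenchymal stem cells from the bone marrow of Lewis rats, kept in culture for a small number of passages. They were grown in 3D Nichoids, in which polymerized grids are stacked into niches that hold the cells, or on 2D Nichoids, which carry a single layer of that grid and served as the flat control. RNA was taken at day 4, and 3 libraries (replicates A, B and C) were sequenced from each substrate. Both groups shared the photoresist, the glass support and the culture medium, and the sources used here do not say whether replicates came from separate animals, so that p values measure the spread between these libraries, which may be technical. The labelled cell type was not checked against marker genes here, since the files name genes by Ensembl identifier and these could not be matched to symbols.

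As background, a binding protein can hold an IGF away from its receptor or keep a store of it near the cell, and proteases free the ligand again by cutting the binding protein. Igfbp5 binds to extracellular matrix and bone mineral and is a main IGF binding protein of bone. Igfbp4 is known mainly as an inhibitor of IGF action and is cut by the protease Pappa. Igfbp2 carries an integrin-binding motif, and Igfbp3 is the main carrier of IGFs in serum. Stromal cells and osteoblasts of bone marrow secrete several of these proteins.

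The 250 bases before the RefSeq transcript start are shown for Igfbp5 and Igfbp4, which passed the test of 3D against 2D Nichoids given with their values, and for Igfbp2, which did not, so that the sequences in front of them can be compared. They come from the RefSeq promoter table of the GRCr8 build, which is not the build of the counts, and all 3 members matched by symbol. Capitals mark matches, on either strand, to a TATA box (TATAAA), a GC box (GGGCGG), an E box (CANNTG), an AP-1 site (TGANTCA) or an AP-2 site (GCCNNNGGC).
Igfbp5, chr9:81914188-81914437, minus strand: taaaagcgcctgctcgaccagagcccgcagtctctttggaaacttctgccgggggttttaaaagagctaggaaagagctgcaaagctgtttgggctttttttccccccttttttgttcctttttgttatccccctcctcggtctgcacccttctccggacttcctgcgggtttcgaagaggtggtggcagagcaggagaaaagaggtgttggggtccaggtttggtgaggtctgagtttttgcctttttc
Igfbp4, chr10:84491221-84491470, plus strand: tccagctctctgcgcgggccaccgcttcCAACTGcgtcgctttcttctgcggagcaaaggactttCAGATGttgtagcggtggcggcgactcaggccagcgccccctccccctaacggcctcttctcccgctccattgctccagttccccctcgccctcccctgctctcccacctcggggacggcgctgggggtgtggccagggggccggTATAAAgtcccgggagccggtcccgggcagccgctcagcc
Igfbp2, chr9:81864561-81864810, plus strand: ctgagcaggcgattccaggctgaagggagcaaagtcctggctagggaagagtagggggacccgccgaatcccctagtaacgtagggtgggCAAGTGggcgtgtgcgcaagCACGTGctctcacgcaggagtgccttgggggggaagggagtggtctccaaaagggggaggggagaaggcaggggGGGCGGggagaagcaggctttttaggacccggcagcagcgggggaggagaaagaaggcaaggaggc

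Igfbp4 held a TATA box from 40 to 35 bases before the start and 2 E boxes, Igfbp2 held a GC box from 66 to 61 bases before the start and 2 E boxes, and Igfbp5 held none of the motifs searched. Of 33469 windows of this length, 12.9% held the TATA box, 30.5% the GC box, 65.5% an E box, 6.34% the AP-1 site and 12.6% the AP-2 site. The G and C content was 51.6% in the Igfbp5 window, near the median of 51.2% over all windows, and 64.0% and 68.8% in the Igfbp2 and Igfbp4 windows. A match is a description of letters, and its absence says nothing about a factor. In the RefSeq tables of that build Igfbp2 and Igfbp5 were direct neighbours on chromosome 9, on opposite strands and with their ends facing each other, while Igfbp4 lay on chromosome 10 with a noncoding RNA gene, LOC134480869, overlapping it on the opposite strand. Igfbp2 and Igfbp5 overlapped no other gene of those tables. How strand was treated in the counting is not given in the sources used here, so reads of Igfbp4 and of an antisense transcript could not be told apart.

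Igfbp5 was 3.48-fold higher in 3D than in 2D Nichoids and Igfbp4 1.58-fold higher, while the 1.72-fold difference of Igfbp2 did not pass the test. In the quasi-likelihood test of edgeR over 13523 genes, 1 of the 3 members was a differentially expressed gene (DEG), defined by an adjusted p value of at most 0.05 together with an absolute log2(FC) above 1. The FC is the ratio of 3D to 2D Nichoids. Over all tested genes 3.42% were DEGs, and 2.06% were DEGs higher in 3D Nichoids. By the adjusted p value alone 2 of the 3 members passed, both higher in 3D Nichoids, against 37.8% of tested genes in either direction and 18.9% higher in 3D Nichoids. In all 3 members every 3D Nichoid library lay above every 2D Nichoid library, as it did in 23.6% of tested genes. With so few members, these counts describe 3 genes and are no test of the family. The RNA came from whole cultures, so more RNA per cell and a larger share of cells with the transcript cannot be told apart.

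Igfbp5 had 6546, 6376 and 6463 reads in the 3D Nichoid libraries (A, B, C), and 1763, 1874 and 2106 reads in the 2D Nichoid libraries (A, B, C). Scaled by TMM, the composition factors of edgeR, these were 162, 170 and 167 CPM (counts per 1000000 reads) in 3D Nichoids against 44.4, 47.2 and 51.8 in 2D Nichoids. The groups were far apart, since the lowest 3D Nichoid library stood 3.13-fold above the highest 2D Nichoid library. The means were 166 ± 3.84 (SD, n = 3) and 47.8 ± 3.75 CPM (SD, n = 3). The log2(FC) was 1.80 (SE 0.05, 95% confidence interval 1.70 to 1.90, adjusted p value 6.94e-30, edgeR quasi-likelihood test).

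Among the 13523 tested genes, Igfbp5 held rank 101 by log2(FC), counted from the largest increase. In the same order it held rank 2 among the 5816 genes whose mean normalized count reached 1000. Decreases were not ranked with it, and 1.17% of the tested genes had a larger absolute log2(FC). Its mean normalized count was 4224. Tested for a log2(FC) beyond 1 in place of 0, Igfbp5 still passed, with an adjusted p value of 8.35e-18 (edgeR), while 89 genes in all did so.

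The 2D Nichoid libraries varied more in Igfbp5 than the counting of independent reads gives. Their coefficient of variation was 7.83%, 3.43 times that counting error. The median was 3.72% over 2672 genes whose mean count over both groups lay within a 2-fold range of that of Igfbp5. A larger variation was found in 6.36% of those genes. The Igfbp5 reads in 2D Nichoids lay below its mean over both groups, so those genes were not matched to its 2D count. In 3D Nichoids the coefficient of variation of Igfbp5 was 2.31%, against a median of 2.98%. Replicate C was the highest of the 2D Nichoid libraries, and without it the log2(FC) was 1.86.

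**Figure D1:**
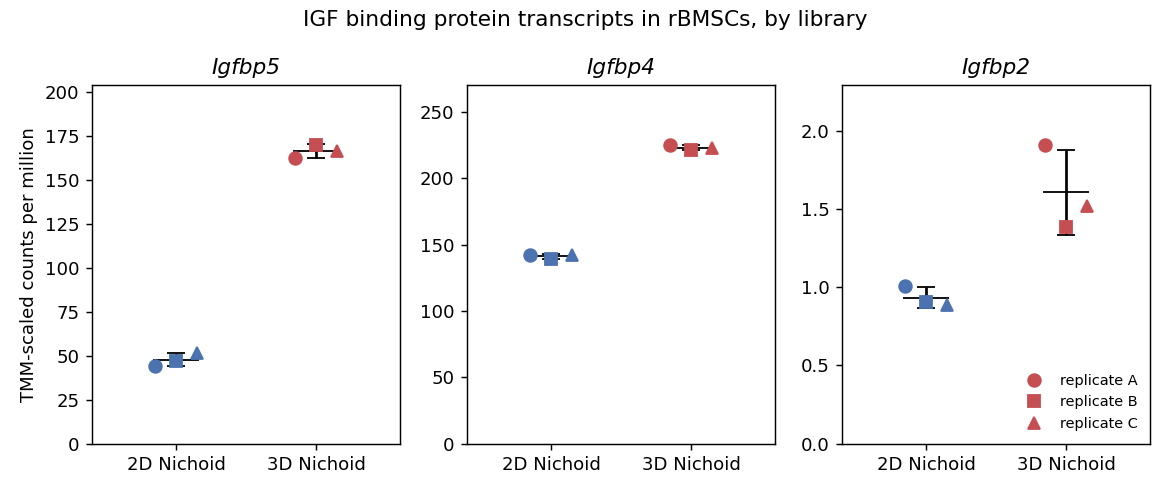
TMM-scaled CPM (y axis, from 0, a separate scale in each panel) of Igfbp5, Igfbp4 and Igfbp2 in the 2D and 3D Nichoid libraries. Symbols are replicates A, B and C, the horizontal line is the mean and the bar 1 SD (n = 3). In each panel the 3D Nichoid libraries sit above the 2D Nichoid libraries, with means of 166 against 47.8 for Igfbp5, 223 against 141 for Igfbp4 and 1.61 against 0.934 for Igfbp2.

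Igfbp4 had 9077, 8286 and 8644 reads in 3D Nichoid replicates A, B and C, and 5655, 5526 and 5763 reads in 2D Nichoid replicates A, B and C. In TMM-scaled CPM these were 225, 221 and 223 against 143, 139 and 142. The replicates lay close together in both groups, and the lowest 3D Nichoid library was 1.55-fold above the highest 2D Nichoid library. The means were 223 ± 2.10 (SD, n = 3) and 141 ± 1.77 CPM (SD, n = 3). The log2(FC) was 0.66 (SE 0.03, 95% confidence interval 0.59 to 0.73, adjusted p value 2.15e-20, edgeR quasi-likelihood test).

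The increase of Igfbp4 was thus well resolved but below the log2(FC) cutoff of 1, so that Igfbp4 was not a DEG. Its coefficients of variation, 0.941% in 3D and 1.25% in 2D Nichoids, were near the 1.07% and 1.33% that counting alone gives. Among genes within a 2-fold range of its mean count, 89.0% varied more in 3D Nichoids and 87.2% varied more in 2D Nichoids. By log2(FC), counted from the largest increase, it held rank 112 among those 5816 well counted genes.

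Igfbp2 was weakly counted in both groups. It had 77, 52 and 59 reads in 3D Nichoid replicates A, B and C, and 40, 36 and 36 reads in 2D Nichoid replicates A, B and C. In TMM-scaled CPM these were 1.91, 1.39 and 1.52 against 1.01, 0.907 and 0.886. Replicate A was the highest 3D Nichoid library, and the groups did not overlap. The means were 1.61 ± 0.272 (SD, n = 3) and 0.934 ± 0.0652 CPM (SD, n = 3). The coefficient of variation was 16.9% in 3D Nichoids, where counting alone gives 12.6%. In 2D Nichoids it was 6.99%, below the 16.4% that counting alone gives. The 2D Nichoid libraries thus lay closer together than their read numbers would lead one to assume, which limits what the lack of overlap shows. The log2(FC) was 0.78 (SE 0.41, 95% confidence interval -0.04 to 1.61, adjusted p value 0.131, edgeR quasi-likelihood test).

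The interval of Igfbp2 included no difference and reached a fold of 3.04, so that a change as large as that of Igfbp4 and no change both lay within it. Counting error was large for this member. As CPM without TMM scaling, replicates B and C of the 3D Nichoids had 1.34 (exact Clopper-Pearson 95% interval 1.002 to 1.76) and 1.47 (1.12 to 1.89), and replicate A of the 2D Nichoids had 1.04 (0.745 to 1.42). These intervals overlap, and they cover counting error alone. Replicate A of the 3D Nichoids had 1.84 (1.45 to 2.30), an interval above that of every 2D Nichoid library. Without replicate A of the 3D Nichoids the log2(FC) of Igfbp2 was 0.64, with an adjusted p value of 0.35 (edgeR).

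**Figure D2:**
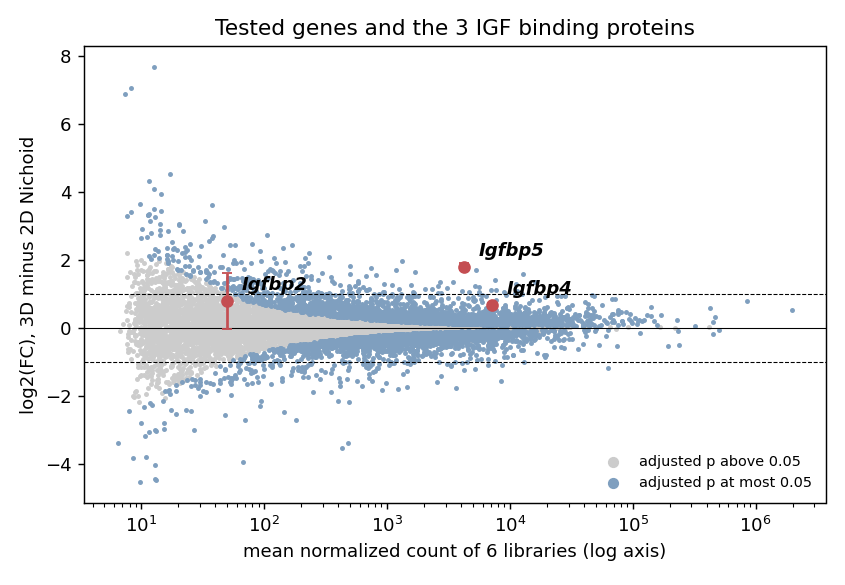
log2(FC) of 3D minus 2D Nichoids (y axis) against the mean normalized count over the 6 libraries (x axis, log scale) for 13523 tested genes. Grey points had an adjusted p value above 0.05 and blue points at most 0.05 (edgeR), red points are the 3 IGF binding proteins with 95% confidence intervals, and dashed lines mark a log2(FC) of 1 in each direction. Igfbp5 at 1.80 stands at the upper edge of genes of its count, Igfbp4 at 0.66 lies below the cutoff, and Igfbp2 at 0.78 has a wide interval among weakly counted genes.

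The members were then compared with each other inside each library, where a ratio of reads needs no scaling between libraries. Gene length was not divided out, so the size of a ratio is one of reads and not of transcripts, but length cancels when ratios are compared between groups. There were 0.721, 0.769 and 0.748 Igfbp5 reads per Igfbp4 read in the 3D Nichoid libraries (A, B, C) against 0.312, 0.339 and 0.365 in the 2D Nichoid libraries (A, B, C). The ratio was therefore higher in every 3D Nichoid library. The difference of the mean log2 ratios was 1.14, a 2.21-fold higher ratio (exact permutation, two-sided, p = 0.1, the lowest that 3 libraries against 3 allow, and 0.15 after Benjamini-Hochberg adjustment over 3 ratios).

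Igfbp5 also lay higher relative to Igfbp2. The log2 ratio of their reads was 6.41 to 6.94 in 3D Nichoids and 5.46 to 5.87 in 2D Nichoids, without overlap, a mean difference of 1.03 (two-sided exact permutation test, p = 0.1, adjusted 0.15). For Igfbp2 and Igfbp4 the groups overlapped, with log2 ratios from -7.32 to -6.88 for the 3D libraries and -7.32 to -7.14 for the 2D libraries. Their mean difference was 0.11 (two-sided exact permutation test, p = 0.6, adjusted 0.6), and without replicate A of the 3D Nichoids it was -0.013. Whether Igfbp2 differed between the substrates by more or less than Igfbp4 could not be told from these libraries.

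Together the 3 members had 15700, 14714 and 15166 reads in the 3D Nichoid libraries (A, B, C) against 7458, 7436 and 7905 in the 2D Nichoid libraries (A, B, C). In TMM-scaled CPM the sums were 390 to 393 in 3D and 187 to 195 in 2D Nichoids, with no overlap and a 2.06-fold higher mean, taken on the log2 scale, in 3D Nichoids (exact permutation, two-sided, p = 0.1, the smallest possible). Of the summed reads, Igfbp5 took 41.7% to 43.3% in 3D Nichoids and 23.6% to 26.6% in 2D Nichoids. The share of Igfbp4 was 56.3% to 57.8% in 3D and 72.9% to 75.8% in 2D Nichoids. Igfbp2 took 0.353% to 0.490% in 3D and 0.455% to 0.536% in 2D Nichoids. With the Igfbp2 share this small, a higher share of Igfbp5 has to appear as a lower share of Igfbp4. In scaled CPM both of these members were higher in 3D Nichoids, and Igfbp5 by the larger fold. Without gene lengths, these shares do not rank the members by transcript number.

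**Figure D3:**
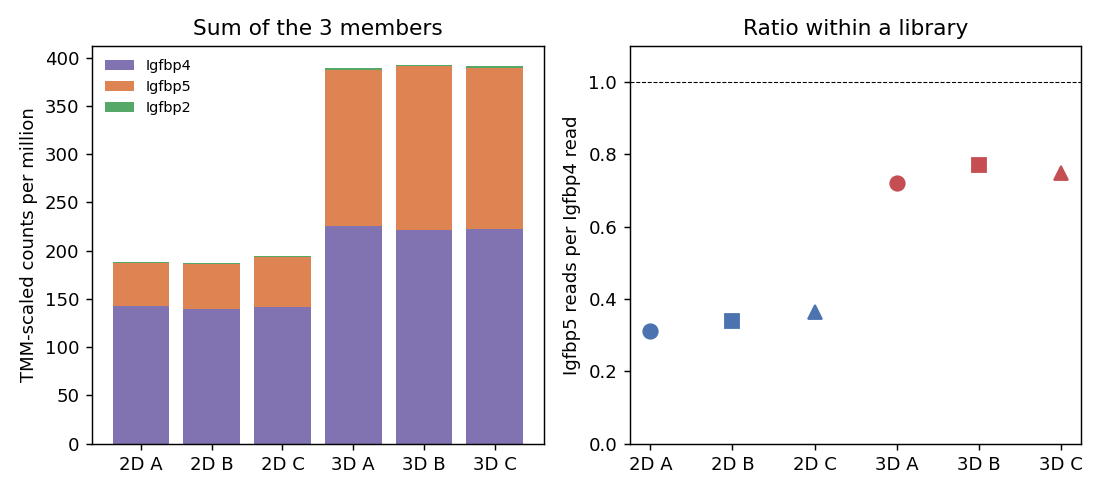
Left, the sum of Igfbp4, Igfbp5 and Igfbp2 in TMM-scaled CPM (y axis) for each library, stacked by gene. Right, Igfbp5 reads per Igfbp4 read in each library (y axis from 0, dashed line at 1, blue for 2D and red for 3D Nichoids). The sums are 187 to 195 in 2D and 390 to 393 in 3D Nichoids, and the ratio rises from 0.312 to 0.365 in 2D Nichoids to 0.721 to 0.769 in 3D Nichoids.

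The directions did not depend on how the libraries were scaled. Total counts without a composition factor shifted the median over the tested genes down by 0.10 on the log2 scale, and the log2(FC) was then 1.70 for Igfbp5, 0.56 for Igfbp4 and 0.68 for Igfbp2. DESeq2, the test of the study's methods, was run here on the filtered genes, so it does not repeat the study's own fit. The values were then 1.80, 0.66 and 0.79, and Igfbp2 again did not pass (adjusted p value 0.079, DESeq2).

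**Figure D4:**
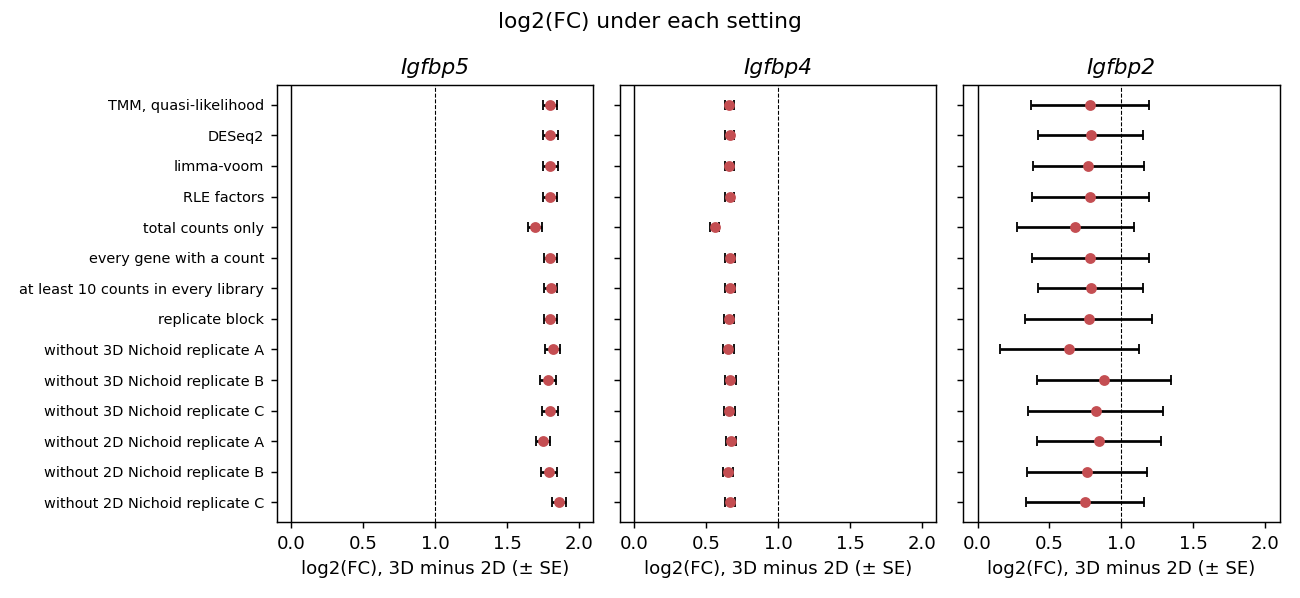
log2(FC) of 3D minus 2D Nichoids (x axis, with bars of 1 SE) of Igfbp5, Igfbp4 and Igfbp2 under each test, scaling, filter and left-out library (rows). The solid line marks 0 and the dashed line a log2(FC) of 1. Igfbp5 stays between 1.70 and 1.86, Igfbp4 between 0.56 and 0.67, and Igfbp2 between 0.64 and 0.88.

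The genes whose pattern was most like that of Igfbp5 were sought among 11610 other genes whose mean normalized count reached 50, by Pearson's r of log2 CPM over the 6 libraries. The highest r, 0.9997, belonged to ENSRNOG00000013720, whose reads numbered 88095, 82143 and 85013 in the 3D Nichoid libraries against 64223, 64716 and 67733 in 2D Nichoids. ENSRNOG00000006197 followed with an r of 0.9995, from 75494, 70250 and 72312 reads against 63358, 63843 and 66174. Their log2(FC) values were 0.42 and 0.22, far smaller than that of Igfbp5, since r compares the shape over libraries and not the size. In all, 255 genes had an r above 0.99, and the libraries fall into 2 groups that carry most of each r, so the likeness is a description. Over the same 6 libraries the r with Igfbp5 was 0.996 for Igfbp4 and 0.914 for Igfbp2, and the step between the groups carries these values too. Within each group the members did not run together, since replicate A was the lowest library for Igfbp5 and the highest for Igfbp4 and Igfbp2.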

How the data were processed

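The 6 libraries hold RNA of rBMSCs from 3D Nichoids (n = 3) and 2D Nichoids (n = 3), grouped by the labels. The deposited values are raw read counts per Ensembl gene, which the authors made from single-end reads with STAR (2.7.0a per the submitters' notes) and HTSeq, without normalization. The submitters' notes name Rnor_6.0 and HTSeq 0.12.4, whereas the paper names another build and HTSeq version. Total counts ranged from 38353363 to 41860684. No pair of libraries agreed within counting error. After filterByExpr and TMM scaling, the robust quasi-likelihood test of edgeR 4.0.16 was run in R 4.3.3, with Benjamini-Hochberg adjustment over all tested genes. The SE of a log2(FC) was obtained as |log2(FC)| over the square root of F. Summed levels and ratios were tested by exact permutation with SciPy 1.17.1. On simulated counts the procedure recovered 91.8% of 196 changed genes, with 1 unchanged gene called among 13349 genes. The simulated log2(FC) was 1.5 or 2 in either direction. Differences as small as those of Igfbp4 and Igfbp2 were not simulated.

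The alternatives were DESeq2 1.42.0 on the filtered genes, limma-voom (limma 3.58.1), RLE factors, total counts, other filters, a block for the replicate letter, fits without each library, and other uses of the log2(FC) cutoff. The genes named are the 4 chosen members of the family and, by rule, the 2 genes most like the member with the largest increase. The members and lists were chosen with earlier results of these data known. A list of IGF pathway genes and of cell type markers, 62 symbols in all, was not analysed, because the gene table paired no symbol with an Ensembl identifier. The design named sums and ratios over 4 members, which were run on the 3 analysed.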

Additional observations from a re-analysis of the deposited data

How the results depend on the processing

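Igfbp5 and Igfbp4 kept their direction and an adjusted p value of at most 0.05 under all 7 alternatives of test, scaling, filter and replicate block and in all 6 fits that left out a library, and Igfbp2 kept its direction but passed in none of them. Leaving out each library in turn gave a log2(FC) from 1.75 to 1.86 for Igfbp5, from 0.65 to 0.67 for Igfbp4 and from 0.64 to 0.88 for Igfbp2. When the log2(FC) was tested against 1, Igfbp4 at 0.66 no longer passed. The cutoff moved the number of DEGs, 463 with 278 higher in 3D Nichoids, to 89 and 51 when the log2(FC) was tested against 1, and to 5109 and 2560 without a log2(FC) cutoff. With each library left out there were 397 to 515 DEGs and 228 to 327 higher in 3D Nichoids. Among DEGs the share higher in 3D Nichoids fell with total counts only, where 215 of 453 were higher. The log2 difference of the summed members, 1.04, was 0.94 with total counts only and 1.03 to 1.06 with each library left out. The difference in the log2 ratio was 1.08 to 1.20 for Igfbp5 to Igfbp4 and 0.91 to 1.18 for Igfbp5 to Igfbp2. For Igfbp2 to Igfbp4 it ran from -0.013, without replicate A of the 3D Nichoids, to 0.20. Libraries of the same replicate letter did not deviate together (r of 0.033, -0.014 and 0.023 for A, B and C over 13523 genes), so the letters were not taken as pairs. With the replicate block the log2(FC) was 1.80, 0.66 and 0.77 for Igfbp5, Igfbp4 and Igfbp2, with 466 DEGs.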
